A study of Mus musculus with 18 samples.

Results

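The genes described here are those of glycolysis together with HIF1A and the genes it is known to induce outside glycolysis. They were given as 39 gene names, of which 21 encode glycolytic enzymes, the enzymes that set fructose 2,6-bisphosphate, and the sugar and lactate carriers, and 18 are Hif1a and non-glycolytic HIF targets. Matched on the gene name in the count table, the 39 names gave 40 of 55487 gene identifiers, since Aldoa is listed under a pair of identifiers. All 40 passed the filter on low counts, 22 in the glycolytic set and 18 in the HIF set. The second Aldoa identifier (ENSMUSG00000114515) lies next to the main gene and carried few reads, so it is reported separately.

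RNA was sequenced from YFP+ natural killer (NK) cells sorted from mouse spleen, in 6 groups of 3 libraries each. The wild-type animals were Rosa YFP/YFP Ncr1 CRE-ERT2, and the knock-outs carried Acly fl/fl in addition. Both genotypes therefore carried the tamoxifen-inducible Cre driven from Ncr1, an NK gene, and both received a tamoxifen diet for 48 hours and were sorted 5 days after its withdrawal. Cells of each genotype were taken fresh, after 72 hours of priming in 100 ng/ml IL-15, or after priming, a wash and 6 hours on plate-bound NKG2D (20 ug/ml). Acly encodes ATP citrate lyase, which makes cytosolic acetyl-CoA from citrate. The labels give no age. They do not say that the 3 libraries of a group are from different mice, so each p-value reflects library-to-library spread, which may be technical.

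Glycolysis converts glucose to pyruvate in the cytosol, and lactate dehydrogenase with the monocarboxylate carriers lets the carbon leave the cell as lactate. HIF1A is a transcription factor whose protein is hydroxylated by the EGLN enzymes and degraded when oxygen is plentiful, and which otherwise pairs with ARNT and binds short DNA motifs near many glycolytic genes and near genes for mitophagy, collagen modification, angiogenesis and its own EGLN inhibitors. In NK cells, IL-15 is a growth and activation signal and NKG2D an activating receptor, and activated NK cells are known to raise glucose uptake.

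The core letters that HIF recognises are ACGTG and GCGTG, and both were searched on both strands in RefSeq promoters of GRCm38.p6, from 250 bases before to 50 bases after each start. A promoter entry was found for 33 member genes, 20 glycolytic and 13 in the HIF set. At least 1 match was present in 26 of the 32 glycolytic promoters (81.2%) and in 17 of the 20 HIF promoters (85.0%), against 14380 of 32851 promoters of all genes (43.8%). The letters contain a CG, and the member promoters were also richer in it, with a median of 20.0 CG pairs in the glycolytic and 26.5 in the HIF promoters against 7.0 in all. The stretches shown here come from the promoters of the 3 glycolytic and the 3 HIF members that held a match before the start and had the lowest knock-out to wild-type ratio in primed cells. Each runs 5′ to 3′ on the gene's strand, with every match in capitals. CACGT is ACGTG read on the other strand, and CACGTG, which holds a match on each strand, was counted once for each.
Slc16a3, chr11:120949038-120949066, plus strand: tgACGTGcgcgggggACGTGccgcgcgac
Aldoc, chr11:78323011-78323039, plus strand: ccacctctgaggGCGTGgccttaccctag
Pgk1, chrX:106186941-106187001, plus strand: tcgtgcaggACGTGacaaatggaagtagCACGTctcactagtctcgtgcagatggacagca
Ak4, chr4:101419241-101419269, plus strand: gcggcggcggtaGCGTGgagccggctccc
Ankrd37, chr8:45999851-45999879, minus strand: gctgcacatgtcagtgtttgggtACGTGa
P4ha2, chr11:54100827-54100887, plus strand: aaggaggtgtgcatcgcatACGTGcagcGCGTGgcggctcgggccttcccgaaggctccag
The stretches ended from 1 to 99 bases before the annotated start. Slc16a3, Pgk1 and P4ha2 each show 2 matches and the other 3 genes 1. A match describes letters only and is no evidence that a factor was bound there.

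Libraries held 14772300 to 34367538 assigned reads. Acly itself was lower in all 9 knock-out libraries than in any wild-type library, at 7.60%, 16.7% and 22.2% of wild type in fresh, primed and NKG2D-stimulated cells. All 8 NK markers were detected in every group, while their summed level was 13200 to 16700 CPM (a gene's reads relative to all assigned reads of the library, scaled by edgeR's TMM factors) in fresh cells, 7250 to 8970 in primed and 4100 to 5190 in stimulated cells. Of the 8 myeloid markers, Lyz2, S100a8 and S100a9 were at 0 in the cultured groups. Cd68 and Itgam were not, at means of 56.6 and 90.3 CPM in primed wild type and 39.2 and 82.6 CPM in primed knock-out. The erythroid and platelet list summed to 121 to 210 CPM in fresh wild type against 25.3 to 26.5 CPM in fresh knock-out. One primed knock-out library, replicate 1, had the fewest reads and 14695 detected genes, against at least 17877 in the others.

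**Figure D1:**
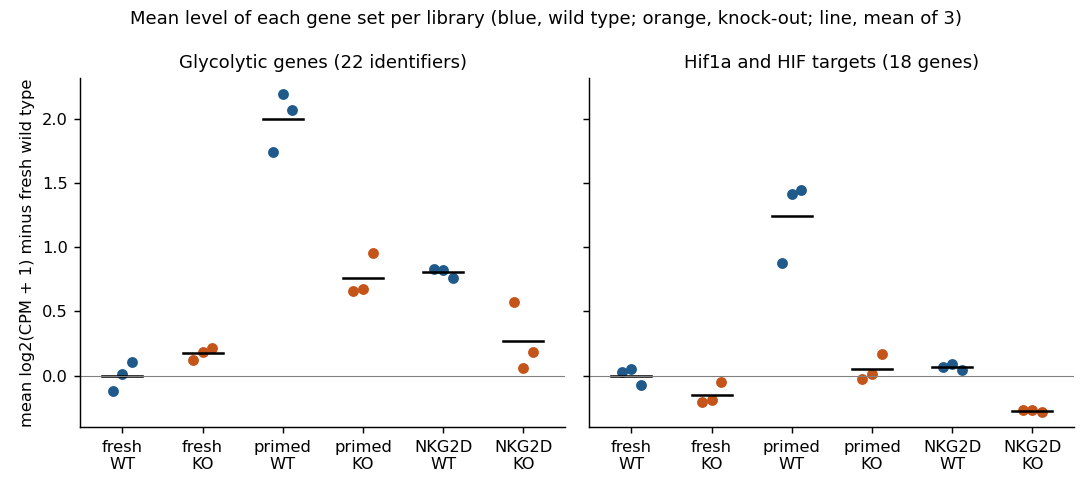
Mean of log2(CPM + 1) over the members of each gene set, relative to fresh wild type (vertical axis), by group (horizontal axis). Each point is a library and each line a mean of 3. The primed wild-type libraries are the highest in both sets, at 2.00 on average for the glycolytic and 1.25 for the HIF set, and the primed knock-out means are 0.76 and 0.05.

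Most of these genes were higher in wild-type cells after priming with IL-15 than in fresh cells. Primed cells were also cultured, fresh cells were not, and no group cultured without IL-15 is analysed here. The cytokine and the culture therefore cannot be told apart, and priming here means both together. Against fresh wild type, 17 of 22 glycolytic members rose and none fell, and in the HIF set 12 of 18 rose and 1 fell (edgeR quasi-likelihood test, Benjamini-Hochberg adjusted p under 0.05). Of all 14864 genes tested, 26.5% rose and 27.2% fell. The median log2 fold change was 2.06 over the glycolytic and 1.81 over the HIF members, against -0.06 over all genes tested. The glycolytic set took 0.478% ± 0.023 (SD, n = 3) of the assigned reads in fresh wild-type cells and 2.14% ± 0.326 (SD, n = 3) after priming. Marker lists of other cells moved too. The summed erythroid and platelet markers went from 121 to 210 CPM in fresh to at most 0.189 CPM in primed wild type, with 7 of 7 tested lower. The myeloid sum went from 509 to 608 CPM to 127 to 166 CPM, with 4 of 6 tested lower and 1 higher. Itgam made up most of it, at means of 528 and 90.3 CPM, while Cd68 averaged 12.7 and 56.6 CPM. The ILC1 sum was 36.8 to 154 CPM in fresh and 124 to 209 CPM in primed cells, with 3 of 4 genes higher and 1 lower. The stromal sum was 49.5 to 72.8 CPM and 119 to 172 CPM, nearly all of it Pecam1, at means of 57.4 and 146 CPM. The part of these lists in the rise was not tested.

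The steepest rises were in genes that were nearly silent in fresh cells. Aldoc, the brain-type aldolase, stood at 2.09, 1.92 and 1.36 CPM in the fresh wild-type libraries and at 74.3, 156 and 123 CPM in the primed ones. That is a 65.0-fold rise (95% interval 40.0 to 106, adjusted p = 1.17e-10 by edgeR). Slc16a3, the lactate exporter MCT4, rose 29.9-fold and Hk2, the inducible hexokinase, 24.9-fold. Among HIF targets, Ankrd37, an ankyrin-repeat protein, rose 30.9-fold and P4ha2, a collagen prolyl hydroxylase subunit, 14.4-fold. Ak4, a mitochondrial adenylate kinase, stood at 0.194, 0 and 0 CPM in fresh and 1.23, 3.93 and 5.37 CPM in primed wild-type libraries. The abundant enzymes of the lower pathway rose by smaller ratios from far higher levels, with 9.67-fold for Pgk1, 8.02-fold for Gapdh, 6.83-fold for Aldoa and 6.42-fold for Ldha.

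Scaled to exon length, Aldoa and Eno1 headed the members both before and after priming in wild type. In fresh wild-type cells the levels in CPM per kilobase of exon were 214 for Aldoa, 205 for Eno1, 157 for Pkm, 157 for Ldha and 65.9 for Bnip3l. In primed wild-type cells they were 1460 for Aldoa, 1090 for Eno1, 1010 for Ldha, 783 for Pkm and 505 for Pgk1. The most abundant HIF members in primed wild-type cells were Fam162a, a mitochondrial protein, at 113 and Higd1a, a respiratory chain assembly factor, at 82.2 CPM per kilobase. These are exon-length values from an annotation of the same genome build, not from transcript models known to be used in these cells. Several of these genes have near-identical copies in the table, of which Eno1b reached 1098 CPM and Pgk1-rs7 253.4 CPM in 1 primed wild-type library, so the levels of Eno1, Pgk1, Gapdh, Gpi1, Pgam1, Ldha and Bnip3l are uncertain by the reads assigned to their copies.

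Not every member took part in the rise. Hk1, the constitutive hexokinase, stood at 185, 197 and 236 CPM in fresh and 191, 216 and 246 CPM in primed wild-type cells, with a log2 fold change of 0.08 (adjusted p = 0.659). Pfkp, Pfkfb3, Pfkfb4 and the second Aldoa identifier did not pass the test either, nor did Bnip3l, Egln1, Kdm3a, Kdm4b and Hilpda. Vegfa, the angiogenic growth factor, fell with priming, from 5.49, 5.49 and 5.55 CPM to 1.84, 2.29 and 2.00 CPM (log2 fold change -1.43, adjusted p = 0.0236 by edgeR). Vegfa was the 1 member called in that direction in wild-type cells.

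**Figure D2:**
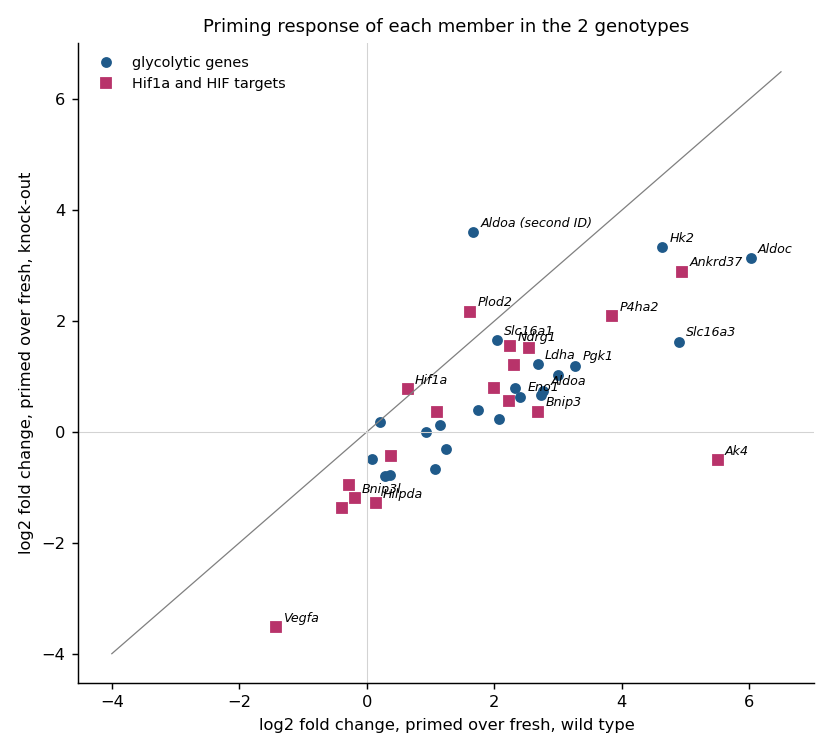
Log2 fold change with priming in wild-type cells (horizontal axis) and in knock-out cells (vertical axis), 1 point per member, coloured by gene set. Most members lie right of 0 and under the diagonal, such as Slc16a3 at 4.90 and 1.63 and Bnip3 at 2.69 and 0.37. The axes use different libraries.

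In primed cells, the knock-out had less RNA of nearly every member than the wild type. Of the 22 glycolytic members 19 fell and none rose, and of the 18 HIF members 13 fell and none rose (edgeR quasi-likelihood test, adjusted p under 0.05). Over all genes tested 8.52% fell and 7% rose. The groups did not overlap for the same 19 and 13 members, each lower in knock-out, where 17.6% of all genes tested lay lower and 13.9% higher without overlap. The median log2 fold change was -1.25 in the glycolytic and -1.25 in the HIF set, against -0.02 over all genes. The glycolytic genes took 0.828% ± 0.113 (SD, n = 3) of the reads in the primed knock-out and 2.14% ± 0.326 (SD, n = 3) in the primed wild type. In bulk RNA, fewer cells with a high level and less RNA in each cell cannot be told apart. The summed stromal markers moved in the same direction, at 119 to 172 CPM in primed wild type and 54.8 to 66 CPM in primed knock-out. That sum was nearly all Pecam1, at means of 146 and 59.5 CPM, with Cdh5 and Col1a1 at 0 in both groups. The summed T-cell markers stood at 41.6 to 75.9 CPM against 32.3 to 39.7 CPM, with Cd4 at 0 in both. The T-cell list was split, with 2 of 4 tested genes lower and 2 higher in knock-out without overlap. Cd3g and Cd3d averaged 32.0 and 11.2 CPM in primed wild type and 10.4 and 5.67 CPM in primed knock-out. Trac and Cd3e averaged 13.1 and 0.572 CPM in primed wild type and 17.4 and 2.02 CPM in primed knock-out. The part of either list in these values was not tested.

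The plasma membrane glucose carriers came first in the pathway. Slc2a1, encoding GLUT1, stood at 138, 203 and 176 CPM in the primed wild-type libraries and at 61.7, 57.8 and 85.8 CPM in the primed knock-out libraries. It fell to 39.7% of wild type (95% interval 31.0 to 51.0, adjusted p = 6.65e-05 by edgeR), and the groups did not overlap. Slc2a3, encoding GLUT3, fell to 52.4%, from 270, 342 and 319 CPM to 155, 176 and 156 CPM.

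Both hexokinases, which trap glucose as glucose 6-phosphate, fell as well. Hk2 stood at 39.1, 48.0 and 47.6 CPM in wild type and 19.8, 17.9 and 20.3 CPM in knock-out, a log2 fold change of -1.22 (SE 0.231, adjusted p = 0.00183 by edgeR). Hk1 fell by 0.57 on the log2 scale, the smallest fall among the called glycolytic members, from 191, 216 and 246 CPM to 131, 156 and 153 CPM. Hk1 had not passed the test for a rise with priming in wild type. Gpi1, the isomerase of the next step, fell to 35.3% of wild type, from 875, 1216 and 947 CPM to 322, 333 and 415 CPM.

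All 3 phosphofructokinase subunits fell, to 43.9% of wild type for Pfkl, 41.0% for Pfkm and 54.5% for Pfkp. Pfkl stood at 196, 291 and 322 CPM in wild type and 109, 103 and 144 CPM in knock-out. Pfkp, the platelet-type subunit, stood at 404, 540 and 452 CPM and at 239, 236 and 285 CPM. Pfkfb3, whose product makes the phosphofructokinase activator fructose 2,6-bisphosphate, stood at 19.0, 24.3 and 26.8 CPM in wild type and 15.7, 10.2 and 10.7 CPM in knock-out (log2 fold change -0.94, adjusted p = 0.00198 by edgeR). Its paralog Pfkfb4 stood at 1.89, 2.07 and 1.87 CPM in wild type and 1.41, 2.00 and 3.03 CPM in knock-out. The groups overlapped for Pfkfb4, and its log2 fold change of 0.15 had a 95% interval of -0.58 to 0.88.

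The aldolases fell, and Aldoc by the largest ratio among the enzymes. Aldoc stood at 74.3, 156 and 123 CPM in wild type and 18.4, 19.0 and 19.3 CPM in knock-out, which is 16.1% of wild type (95% interval 10.8 to 24.0, adjusted p = 8.58e-06 by edgeR). Aldoa, the main aldolase, stood at 3561, 4955 and 4219 CPM against 1144, 1032 and 1547 CPM, or 29.2% of wild type. The second Aldoa identifier remained under 1 CPM in each primed library and its groups overlapped. Tpi1, which interconverts the pair of triose phosphates, fell to 31.7%, from 532, 856 and 616 CPM to 181, 188 and 266 CPM.

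The genes of the lower pathway, of which Pgk1 and Pkm encode the ATP-making enzymes, fell as well. Pgk1, the first ATP-making enzyme, stood at 919, 1371 and 1110 CPM in wild type and 332, 278 and 339 CPM in knock-out. Its log2 fold change of -1.84 (SE 0.145) had the smallest adjusted p of the members in this comparison, 4.29e-07 by edgeR. Gapdh fell to 35.6%, from 779, 1142 and 759 CPM to 196, 322 and 436 CPM, and Pgam1 to 46.1%. Eno1, the main enolase, fell to 34.7%, from 4833, 6949 and 5732 CPM to 1921, 1776 and 2371 CPM. Pkm, pyruvate kinase, fell to 40.9%, from 3252, 4505 and 3998 CPM to 1433, 1467 and 1902 CPM. For each of these genes every knock-out library was below every wild-type library.

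The lactate end of the pathway split by carrier. Ldha, the lactate dehydrogenase subunit, stood at 2811, 4053 and 3126 CPM in wild type and 1359, 1320 and 1752 CPM in knock-out, or 44.4% of wild type. Slc16a3 had the largest fall of the set, from 95.8, 134 and 150 CPM to 11.4, 13.5 and 17.2 CPM. It was at 11.1% of wild type (95% interval 7.49 to 16.4, adjusted p = 8.59e-07 by edgeR). Slc16a1, encoding the lactate carrier MCT1, stood at 14.2, 16.0 and 20.0 CPM in wild type and 10.8, 12.8 and 15.2 CPM in knock-out, with overlapping groups and an adjusted p of 0.196.

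**Figure D3:**
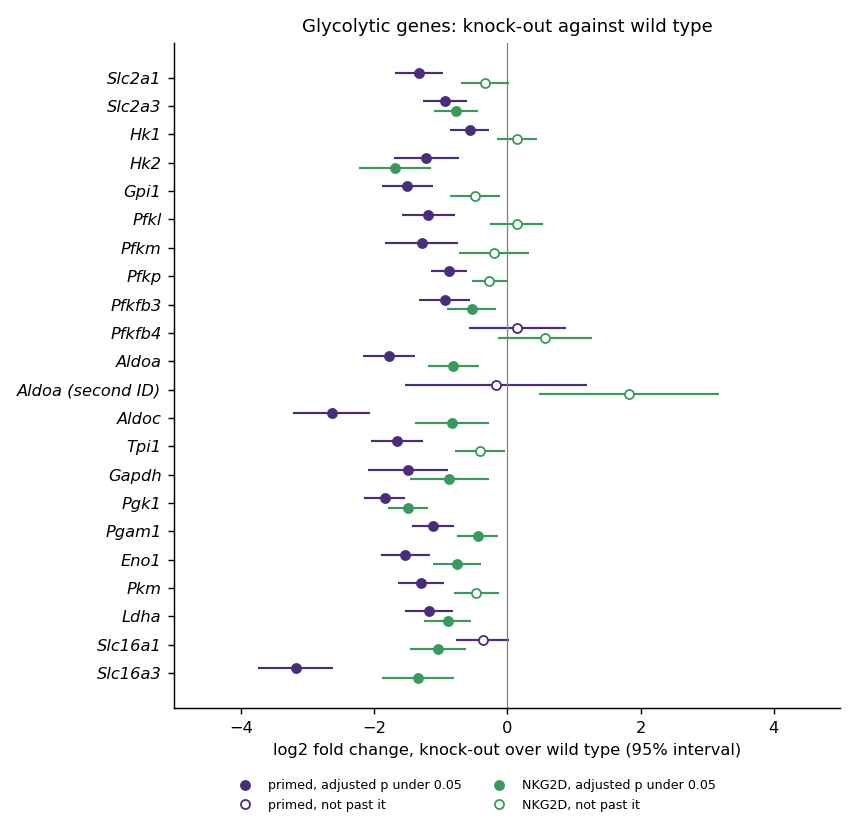
Knock-out against wild-type log2 fold change with its 95% interval (horizontal axis) for each glycolytic member (vertical axis, in pathway order), in primed and NKG2D-stimulated cells. In primed cells the intervals of 19 members lie under 0 with a call, and Slc16a3 is the farthest out at -3.17.

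Hif1a RNA itself differed little in primed cells. It stood at 30.2, 24.6 and 26.7 CPM in wild type and 25, 21.4 and 23.2 CPM in knock-out, with overlapping groups. Its log2 fold change of -0.23 (95% interval -0.56 to 0.11, adjusted p = 0.358 by edgeR) did not pass the test. HIF1A is controlled largely at the protein level, which these data do not measure. Of the prolyl hydroxylases that mark HIF1A for degradation, Egln1 fell to 56.9% of wild type, from 28.9, 48.3 and 35.3 CPM to 22, 21.2 and 20.7 CPM. Egln3 stood at 1.08, 2.40 and 5.83 CPM in wild type and 1.88, 0.355 and 0.144 CPM in knock-out, with overlapping groups and an adjusted p of 0.108.

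The mitophagy receptors fell. Bnip3 stood at 93.2, 226 and 192 CPM in primed wild type and 29.3, 27.2 and 35.2 CPM in primed knock-out, or 17.9% of wild type (95% interval 12.5 to 25.8, adjusted p = 6.13e-06 by edgeR). Its level in the primed knock-out was near the 22.5, 30.1 and 26.9 CPM of fresh wild-type cells. Bnip3l, the related receptor NIX, fell to 50.2%, from 191, 265 and 215 CPM to 102, 116 and 119 CPM. Unlike Bnip3, Bnip3l had not passed the test for a rise with priming in wild type.

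Enzymes of collagen and disulfide formation gave unequal values. P4ha1, the catalytic subunit of prolyl 4-hydroxylase, stood at 77.7, 112 and 105 CPM in wild type and 40.3, 41.7 and 46.2 CPM in knock-out, or 43.4%. P4ha2 fell to 17.0% (95% interval 7.11 to 40.7), from 5.71, 9.43 and 6.14 CPM to 0.603, 0.886 and 2.07 CPM. Plod2, a lysyl hydroxylase, stood at 19.4, 20.2 and 35.4 CPM in wild type and 22.9, 17.2 and 18.2 CPM in knock-out, did not pass the test (adjusted p = 0.307) and overlapped between groups. Ero1l, the oxidase that feeds disulfide formation in the endoplasmic reticulum, fell to 40.7%, from 25.9, 41.0 and 45.6 CPM to 13.9, 13.5 and 18.3 CPM.

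Among the remaining HIF targets, Ak4 came closest to absence in the knock-out. It stood at 1.23, 3.93 and 5.37 CPM in primed wild type and 0, 0.0443 and 0.0481 CPM in primed knock-out. These are 2 reads against 273 over the 3 libraries of each group, a ratio of 0.906% with a counting interval of 0.109% to 3.30%, which covers counting error only. Ankrd37 fell from 16.7, 36.8 and 33.5 CPM to 2.68, 3.46 and 4.52 CPM, or 12.3% of wild type. Vegfa fell from 1.84, 2.29 and 2.00 CPM to 0, 0.399 and 0.577 CPM, at a depth where single reads weigh on each knock-out value.

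Of the last 6 HIF members, 4 fell and 2 did not pass the test. Higd1a fell to 62.8%, from 221, 284 and 244 CPM to 166, 144 and 160 CPM, and Fam162a to 32.7%. Hilpda, a lipid-droplet protein, fell to 36.5%, from 24.8, 39.5 and 31.8 CPM to 10.8, 12.9 and 11.2 CPM. Kdm3a, a histone H3 lysine 9 demethylase, fell to 57.4%, from 26.0, 35 and 32.1 CPM to 18.4, 18 and 17.1 CPM. Ndrg1, a stress-response gene, stood at 25.4, 38.3 and 39.5 CPM in wild type and 25.2, 22.2 and 25.6 CPM in knock-out, with overlapping groups and an adjusted p of 0.0653. Kdm4b, a related demethylase, had a log2 fold change of -0.63 and did not pass the test (adjusted p = 0.372 by edgeR). It stood at 5.62, 5.62 and 5.96 CPM in wild type and 0.536, 4.39 and 5.96 CPM in knock-out, with overlapping groups. The lowest value was in replicate 1, the library with the fewest reads.

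**Figure D4:**
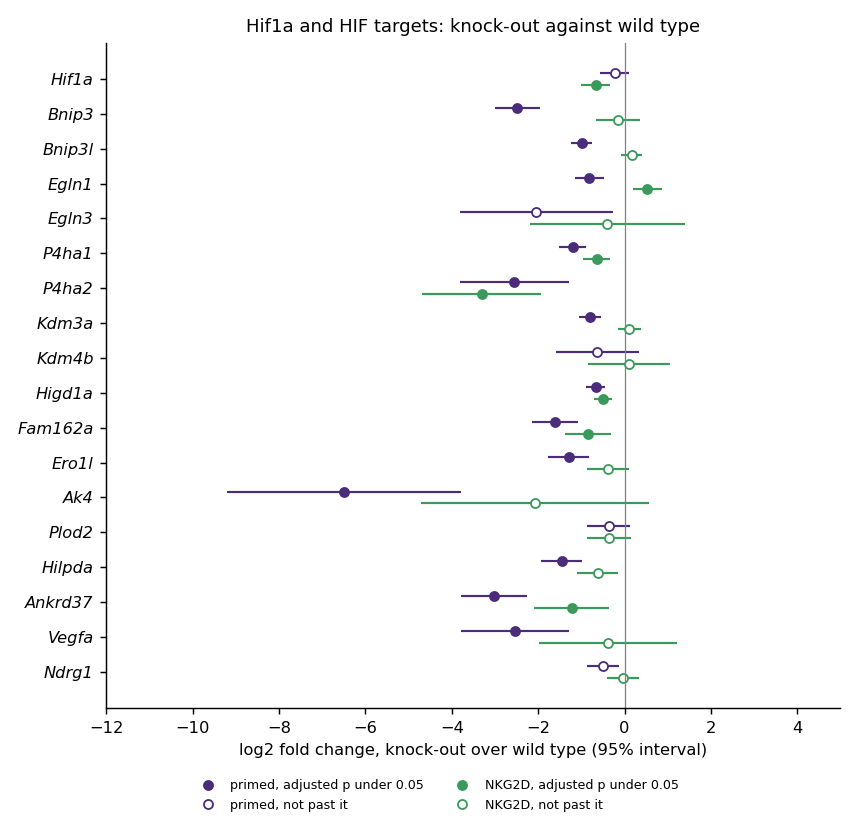
Knock-out against wild-type log2 fold change with its 95% interval (horizontal axis) for Hif1a and its non-glycolytic targets (vertical axis) in primed and NKG2D-stimulated cells. In primed cells all 18 values are under 0 and Hif1a, at -0.23, is the closest to 0.

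Fewer members rose with priming in the knock-out than in the wild type, and more fell. Against fresh knock-out cells, 13 glycolytic members rose and 4 fell, and in the HIF set 9 rose and 6 fell, where 23% of all genes tested rose and 25.7% fell. The median log2 fold change was 0.65 over the glycolytic and 0.47 over the HIF members. The 4 glycolytic falls were in Hk1, Pfkm, Pfkp and Pfkfb3, and the 6 HIF falls in Bnip3l, Egln1, Kdm3a, Kdm4b, Hilpda and Vegfa. For Kdm4b the primed knock-out values were uneven, at 0.536, 4.39 and 5.96 CPM, with the lowest in replicate 1. Pfkp stood at 434, 460 and 427 CPM in fresh and 239, 236 and 285 CPM in primed knock-out libraries (log2 fold change -0.80, adjusted p = 5.60e-05 by edgeR). Hilpda fell to 41.0% of fresh knock-out. The largest rises in the knock-out, apart from the sparse second Aldoa identifier, were 10.1-fold for Hk2, 8.80-fold for Aldoc, 7.43-fold for Ankrd37 and 4.51-fold for Plod2.

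The difference between the genotypes in their response to priming was tested directly. It was lower in the knock-out for 18 of 22 glycolytic and 9 of 18 HIF members and higher for none, against 6.41% lower and 4.08% higher over all genes tested. For Slc2a1 the log2 fold change with priming was 1.24 in wild type and -0.31 in knock-out, a difference of -1.55 (SE 0.239, adjusted p = 0.000781 by edgeR). For Gpi1 it was 2.07 and 0.24, for Bnip3 2.69 and 0.37, and for Pgk1 3.27 and 1.2. Slc16a1 rose in both genotypes, by 2.04 and 1.66, as did Hif1a, by 0.64 and 0.77, and neither passed the test of the difference (adjusted p = 0.403 and 0.764). Plod2 rose by 1.62 in wild type and 2.17 in knock-out (adjusted p of the difference 0.325). Without fresh knock-out replicate 3 or without primed wild-type replicate 2, the count in the HIF set was 5 instead of 9, and with the replicate number as a block it was 6. The contrasts by genotype in primed and in fresh cells use the same libraries as this difference.

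**Figure D5:**
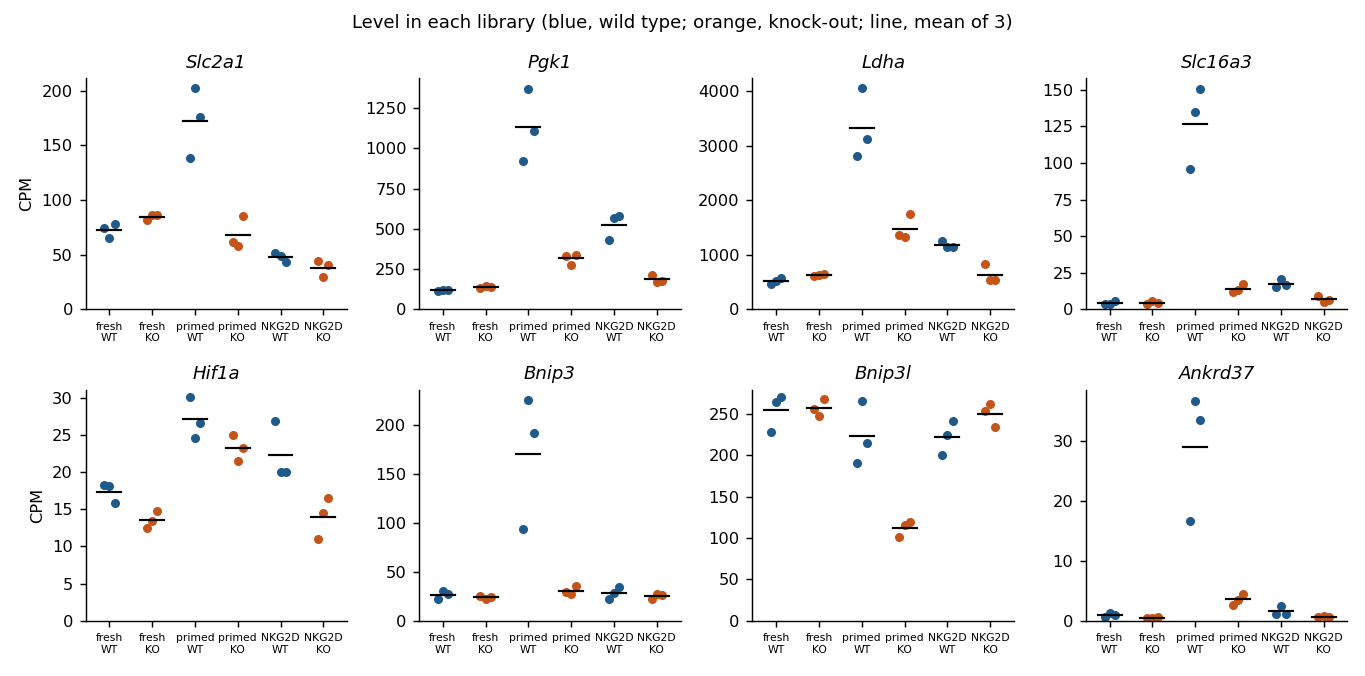
Level in CPM (vertical axis) in every library of the 6 groups (horizontal axis) for single members, with wild type in blue, knock-out in orange and a line at the mean of 3. In the primed state the orange points of Slc16a3 lie between 11.4 and 17.2 CPM and the blue points between 95.8 and 150.

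Stimulation through NKG2D lowered these genes in primed wild-type cells. Of the glycolytic members 16 fell and 1 rose, and of the HIF members 13 fell and none rose, where 10.7% of all genes tested fell and 9.2% rose. The median log2 fold change was -1.32 over the glycolytic and -1.39 over the HIF members. Ankrd37 fell to 5.27% of primed wild type, to 1.08, 2.48 and 1.08 CPM. Slc16a3 fell to 13.7%, to 15.1, 20.4 and 16.6 CPM, and Hk2 to 15.7%, to 8.65, 5.77 and 6.6 CPM. Vegfa fell again, to 0.200, 0.238 and 0.187 CPM. The glycolytic gene that rose was Pfkfb3, to 45.7, 44.0 and 32.0 CPM (1.74-fold, adjusted p = 0.00350 by edgeR). Since stimulated cells were also washed and cultured 6 hours longer, and no washed and unstimulated group is analysed here, the receptor and the handling cannot be told apart. The summed ILC1 markers stood at 124 to 209 CPM in primed and 265 to 402 CPM in stimulated wild type, with 1 of 4 higher. The stromal sum, nearly all Pecam1, stood at 119 to 172 CPM and 213 to 294 CPM. Their part in these falls was not tested.

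In the knock-out, NKG2D stimulation lowered 13 glycolytic members and raised Pfkm and Pfkfb3, and it lowered 7 HIF members and raised Bnip3l and Kdm3a. Of all genes tested 16.9% fell and 18.4% rose. Bnip3l went from 102, 116 and 119 CPM to 253, 262 and 235 CPM (2.23-fold, adjusted p = 8.39e-07 by edgeR), while in wild type it stood at 191, 265 and 215 CPM before and 200, 225 and 242 CPM after stimulation. Aldoa, Aldoc, Gapdh and Gpi1, of which Gapdh alone had not passed the test for a fall in wild type, did not pass it in the knock-out. From primed to stimulated knock-out the summed myeloid markers went from 108 to 140 CPM to 278 to 347 CPM, with 3 of 6 tested higher and Lyz2, S100a8 and S100a9 at 0. That sum was nearly all Itgam and Cd68, which went from means of 82.6 and 39.2 CPM to 206 and 96.8 CPM. The ILC1 sum went from 168 to 210 CPM to 359 to 413 CPM. The stromal sum, nearly all Pecam1, went from 54.8 to 66 CPM to 122 to 156 CPM, and the part of these lists was not tested.

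The difference in the response to stimulation was higher in the knock-out for 7 glycolytic members, namely Slc2a1, Gpi1, Pfkl, Aldoa, Aldoc, Tpi1 and Slc16a3, and for 4 HIF members, namely Bnip3, Bnip3l, Egln1 and Kdm3a. None was lower, and over all genes tested 1.49% were higher and 2.07% lower. For Bnip3 the log2 fold change was -2.59 in wild type and -0.26 in knock-out, a difference of 2.33 (SE 0.340, adjusted p = 0.00111 by edgeR). Slc16a1 had a difference of -0.67 that did not pass the test (adjusted p = 0.203). The glycolytic count was 4 without NKG2D wild-type replicate 1 or 2, primed wild-type replicate 2, or primed knock-out replicate 1 or 2, and 13 without NKG2D knock-out replicate 2. It was also 4 with a replicate block and 3 when each comparison was fitted on its own libraries.

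After stimulation, the knock-out still had lower levels of 12 glycolytic members, with none higher, and of 6 HIF members, with 1 higher. Of all genes tested 9.47% were lower and 8.75% higher. Groups that did not overlap were lower in knock-out for 12 glycolytic and 7 HIF members and higher for 2 of each, where 17.1% of all genes tested lay lower and 17.6% higher in that way. The median log2 fold change was -0.51 over the glycolytic and -0.39 over the HIF members, against 0.03 over all genes. In the mean over the glycolytic set, knock-out replicate 1 stood at 0.571 above fresh wild type on the log2 scale, and the other 2 knock-out libraries at 0.059 and 0.18. In the HIF set the 3 knock-out libraries lay between -0.281 and -0.267. The glycolytic count of 12 was 16 without knock-out replicate 1 and 8 without knock-out replicate 2, knock-out replicate 3 or wild-type replicate 2. The summed stromal markers, nearly all Pecam1, were again lower in the knock-out, at 122 to 156 CPM against 213 to 294 CPM. The summed myeloid markers were higher, at 278 to 347 CPM against 168 to 186 CPM, with 2 of 6 tested higher and 1 lower. That sum was nearly all Itgam and Cd68, at means of 206 and 96.8 CPM in knock-out and 114 and 58.2 CPM in wild type. Lyz2, S100a8 and S100a9 were at 0. The summed T-cell markers were 26 to 27 CPM in knock-out and 40.7 to 65.7 CPM in wild type. Their part in the result was not tested.

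Pgk1 and Hk2 had the largest glycolytic differences in stimulated cells apart from the second Aldoa identifier. Pgk1 stood at 428, 566 and 578 CPM in wild type and 212, 172 and 176 CPM in knock-out, or 35.7% of wild type (95% interval 28.9 to 44.0, adjusted p = 4.09e-06 by edgeR). Hk2 stood at 8.65, 5.77 and 6.6 CPM in wild type and 1.64, 2.29 and 2.61 CPM in knock-out, or 31.0% of wild type. The knock-out level was close to the 1.12, 1.88 and 2.46 CPM of fresh wild-type cells. Slc16a3 fell to 39.5% and Slc16a1 to 48.8% of wild type, the latter from 6.42, 5.62 and 7.35 CPM to 3.02, 3.88 and 2.57 CPM. Slc16a1 had not passed the test in primed cells.

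Ldha stood at 1252, 1142 and 1142 CPM in stimulated wild type and 826, 530 and 544 CPM in knock-out, or 53.7% of wild type. Eno1 was at 59.4%, Aldoa at 57.1%, Slc2a3 at 58.6%, Aldoc at 56.1%, Gapdh at 54.7%, Pfkfb3 at 69.0% and Pgam1 at 73.3%, each with a call. Pgam1 alone among the 12 overlapped between groups. Gpi1, Pkm, Tpi1 and Pfkp did not pass the test with all libraries and did so without knock-out replicate 1, with log2 fold changes of -0.77, -0.70, -0.63 and -0.41. Pfkl, at 55.5, 44.0 and 42.6 CPM in wild type and 65.7, 45.5 and 45.9 CPM in knock-out, had overlapping groups. Hk1 also overlapped, at 171, 178 and 144 CPM against 219, 144 and 180 CPM.

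In the HIF set, Hif1a RNA itself was lower in the stimulated knock-out, at 11.0, 14.5 and 16.6 CPM against 26.9, 20.0 and 20.0 CPM (62.7% of wild type, adjusted p = 0.00762 by edgeR). P4ha2 fell to 10.1% (95% interval 3.90 to 26.1), from 5.34, 2.86 and 3.51 CPM to 0.629, 0.514 and 0.0408 CPM. P4ha1, Higd1a, Fam162a and Ankrd37 fell to 63.8%, 70.8%, 55.7% and 42.7% of wild type. Egln1 was the 1 member higher in the knock-out, at 18.6, 21.5 and 18.2 CPM against 12.5, 12.3 and 15.6 CPM (1.44-fold, adjusted p = 0.0299 by edgeR). Bnip3, which differed in primed cells, stood at 22.4, 28 and 34.8 CPM in wild type and 22.3, 27.7 and 26.6 CPM in knock-out, with overlapping groups. The number of HIF members called, 7 over both directions, was 4 without NKG2D wild-type replicate 2 or without NKG2D knock-out replicate 2.

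In fresh cells no member passed the test in either direction, where 8 genes (0.0538%) were called lower and 2 (0.0135%) higher among all tested. The glycolytic values leaned higher in the knock-out, with 19 of 22 above 0 and a median log2 fold change of 0.23 against 0.01 over all genes. In 12 of them the 3 knock-out libraries lay above the 3 wild-type libraries, and in 1, the second Aldoa identifier, below, where 14.1% and 12.8% of all genes tested showed such a gap. Tpi1 stood at 96.2, 95.6 and 110 CPM in wild type and 127, 134 and 141 CPM in knock-out (log2 fold change 0.42, 95% interval 0.04 to 0.79, adjusted p = 0.339 by edgeR). Gapdh stood at 96.6, 107 and 130 CPM in wild type and 147, 155 and 165 CPM in knock-out, with a log2 fold change of 0.48 and an adjusted p of 0.493. The groups did not overlap in either gene.

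The HIF values in fresh cells leaned the other way, with 13 of 18 under 0 and a median log2 fold change of -0.14. Without overlap between groups, 3 members lay lower in knock-out and 1, Kdm4b, higher. Of all genes tested, 12.8% lay lower and 14.1% higher in that way. Plod2 stood at 6.93, 9.80 and 7.69 CPM in wild type and 3.99, 4.74 and 4.18 CPM in knock-out (log2 fold change -0.92, adjusted p = 0.206 by edgeR). Hif1a stood at 18.2, 18.1 and 15.9 CPM against 12.4, 13.5 and 14.8 CPM (log2 fold change -0.36, adjusted p = 0.364). In both, every knock-out library was below every wild-type library, and neither passed the test. The summed erythroid and platelet markers were also lower in fresh knock-out, in the globin genes and not in Pf4 or Ppbp, as given with the depth. Of 6 myeloid markers tested, 5 had a log2 fold change under 0 and 3 lay lower without overlap, with none called. The myeloid sums overlapped, at 509 to 608 CPM in fresh wild type and 511 to 665 CPM in fresh knock-out. The part of either list was not tested. At most 2 glycolytic and 1 HIF members were called in fresh cells under any alternative that was run. The 2 glycolytic calls came from the fit on the fresh libraries alone, which called 5.86% of all genes, and the fit with no filter, with 1 call in each set, called 1.99%. Before adjustment, edgeR gave p under 0.05 for 12.8% of all genes tested and for 6 of the 40 identifiers, namely Tpi1, Plod2, Hif1a, Fam162a, Ankrd37 and the second Aldoa identifier. DESeq2 called 0 glycolytic and 1 HIF member in fresh cells, where it called 1.17% of all genes, and limma voom 1 of each, where it called 12.8% of all genes.

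Related genes outside the 39 names were read from 3 further lists. In the primed knock-out, 8.52% of all genes tested were lower and 7% higher. Of other glycolytic and gluconeogenic isoforms, 3 of 19 tested fell in the primed knock-out and none rose, among them Eno3 and Pgm1. Eno3, the muscle enolase, had a log2 fold change of -1.64 and Pgm1, phosphoglucomutase, of -1.33. Of HIF subunits and oxygen-sensing machinery, 1 of 17 fell, Elob at -0.42, and 1 rose. The gene that rose was Epas1, encoding HIF2A, at 0.94, 1.09 and 0.95 CPM in primed wild type and 6.43, 6.43 and 6.97 CPM in primed knock-out (log2 fold change 2.73, adjusted p = 3.99e-06 by edgeR). Of other reported HIF targets, 11 of 30 fell and 1 rose, with Car9, a carbonic anhydrase, at -2.58 and Pygl, glycogen phosphorylase, at -2.44, and Nt5e, the ectonucleotidase CD73, at 1.29 as the gene that rose. The medians of the 3 lists were -0.10, -0.10 and -0.24, nearer to the -0.02 of all genes than the -1.25 of either member set. Members and lists were chosen with earlier results of these data known. The gap in medians therefore cannot show that the change is particular to the members.

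In stimulated cells the same 3 lists gave 2 lower and 2 higher of 19, 5 lower and 1 higher of 17, and 5 lower and 3 higher of 30, beside 9.47% lower and 8.75% higher over all genes tested. Epas1 was again the HIF subunit that was higher, with a log2 fold change of 1.4. Among the other HIF targets called lower, Mif, a secreted cytokine, had a log2 fold change of -1.63 and Tfrc, the transferrin receptor, of -1.43. With priming in wild type the lists gave 10 higher and 1 lower, 5 higher and 8 lower, and 11 higher and 6 lower, beside 26.5% higher and 27.2% lower over all genes tested.

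The authors' deposited tables of differential expression list 21 of the glycolytic and all 18 HIF members. In the authors' deposited table for primed cells, 19 glycolytic and 15 HIF members were lower at an adjusted p under 0.05 and none was higher, where 13.2% of all genes in the authors' deposited table were lower and 18% higher. The authors' deposited table for stimulated cells has 17 glycolytic members lower and 7 HIF members lower with 1 higher, beside 22.4% of all its genes lower and 23.1% higher. For fresh cells the authors' deposited table calls 3 glycolytic members higher, Gpi1 (log2 0.32), Tpi1 (0.42) and Gapdh (0.48), and 1 HIF member lower, Plod2 (-0.99), none of which passed in the edgeR fit used here. Of all genes in that authors' deposited table, 7.15% were lower and 7.14% higher.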

How the data were processed

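Gene-level expected counts for 18 libraries of sorted mouse NK cells (6 groups of 3) were deposited by the authors; 30% of values above 0 were not whole, so they were rounded to whole numbers before testing, where whole counts had been assumed when the tests were chosen. The submitters' processing notes name bcl2fastq, DRAGEN, edgeR and the build mm10, with no role given, and the labels' protocols name RNeasy extraction and a Takara-Clontech SMARTer kit. Versions, the annotation and the strand setting were not stated there.

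Counts were normalised by TMM and tested with edgeR 4.0.16 (R 4.3.3; quasi-likelihood, filterByExpr, 1 coefficient per group over all 18 libraries, 12 residual degrees of freedom), with Benjamini-Hochberg adjustment over 14864 genes at 0.05. Responses to priming and stimulation, and their difference between genotypes, were contrasts of that fit. SEs of log2 fold changes come from the F statistic, with 95% intervals. Levels per library are CPM; set means used log2(CPM + 1). Depth was 14772300 to 34367538 reads, and intervals on read ratios cover counting error only. The table has 55774 rows, of which 287 repeat an identifier. The code was tested on simulated data.

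The authors' deposited tables of log2 fold changes and adjusted p-values were read for 3 comparisons; 54 per-sample columns in them were not used. Gene coordinates and exon lengths are from GENCODE M21 (GRCm38), promoters from RefSeq GRCm38.p6.

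Members and lists were chosen with earlier results of these data known. Values in every library were given for members of each glycolytic step and HIF-target role, and otherwise for the 3 highest and lowest fold changes of each set; from the further lists up to 2 rises and 2 falls were named. Alternatives were RLE factors, no filter, a filter at CPM over 1 in 9 libraries, DESeq2 1.42.0, limma 3.58.1 (voom with quality weights), each comparison on its own libraries, a replicate block, leaving out each library, and, added after seeing the data, counting reads of near-identical copies with their gene. Replicate numbers recur across groups. Deviations from the group means correlated over 0.1 in every same-numbered pair for priming in knock-out only (0.155, 0.150 and 0.124), and there the block changed no call.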

Additional observations from a re-analysis of the deposited data

Results flagged for a closer look

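The response of a gene to priming or to stimulation was compared between genotypes by the edgeR test of the difference itself, and 27 and 11 such differences passed an adjusted p of 0.05. Each value is the log2 fold change in knock-out minus that in wild type.

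For priming, the differences at the entry of glycolysis were -1.55 for Slc2a1, -0.93 for Slc2a3, -1.31 for Hk2 and -1.83 for Gpi1. The phosphofructokinase step gave -1.01 for Pfkl, -1.74 for Pfkm, -1.08 for Pfkp and -1.14 for Pfkfb3. Aldolases and Tpi1 gave -2.03 for Aldoa, -2.88 for Aldoc and -2.07 for Tpi1. The lower steps gave -1.97 for Gapdh, -2.08 for Pgk1, -1.35 for Pgam1, -1.77 for Eno1, -1.52 for Pkm, -1.46 for Ldha and -3.27 for Slc16a3. The HIF targets gave -2.32 for Bnip3, -1.01 for Bnip3l, -0.82 for Egln1, -1.10 for P4ha1, -0.68 for Kdm3a, -0.75 for Higd1a, -1.21 for Ero1l, -1.43 for Hilpda and -2.06 for Ankrd37.

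For stimulation, the glycolytic differences were 1.00 for Slc2a1, 1.02 for Gpi1, 1.33 for Pfkl, 0.96 for Aldoa, 1.80 for Aldoc, 1.24 for Tpi1 and 1.83 for Slc16a3. The HIF targets gave 2.33 for Bnip3, 1.16 for Bnip3l, 1.34 for Egln1 and 0.91 for Kdm3a. Both differences use the primed libraries, with opposite sign.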

How the results depend on the processing

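Among the counts of members called, those by genotype in primed cells and those of priming and stimulation within a genotype were within 1.5 times their value under every alternative that gave one. In fresh cells the glycolytic count of 0 became 1 with no filter, 1 with limma voom and 2 on the comparison's own libraries, and the HIF count of 0 became 1 with no filter, DESeq2, limma voom or own libraries. In stimulated cells the glycolytic count of 12 ranged from 8 to 18 over the alternatives. There the HIF count of 7 became 4 on own libraries, with a range of 4 to 6 when leaving out 1 library. The difference in priming gave 5 to 11 HIF members, against 9, when leaving out 1 library. The difference in stimulation gave 7 glycolytic members, 11 with no filter, DESeq2 or limma voom, 3 on own libraries, and 4 to 13 when leaving out 1 library. Gapdh in the stimulated against the primed knock-out gave a log2 value of 0.04 by edgeR (adjusted p = 0.932) and -0.45 by limma voom (adjusted p = 0.0387); the cause was not tested.

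With the replicate number as a block, the glycolytic count of the difference in stimulation was 4 and the HIF count of the difference in priming was 6; of 360 single values 347 kept their side of the threshold. Pairing by number was not borne out by same-numbered pairs except for priming in knock-out. Adding the reads of near-identical copies left 359 of 360 on the same side, Pgam1 in stimulated cells being the exception (adjusted p = 0.0711 by edgeR).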
